A study of Mus musculus with 4 samples.

Results

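Glutamatergic projection neurons send long axons between brain regions and release glutamate as their transmitter. A set of 31 genes used as markers of these neurons, or of the pallial and hypothalamic-type lineages that make them, was followed through the 4 libraries. The members were taken by gene symbol, and all 31 were found once each among the 24490 entries listed per library, of which 22753 gene symbols were kept. The rule named them by symbol and used no measured value. The members were, however, chosen with earlier results of these data known, so the set as a whole was given no test.

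The mice were NpyCre/+;TRAPlox/lox and the tissue was the amygdala. In these mice Cre is driven by Npy, the gene of neuropeptide Y, and acts on a lox allele for translating ribosome affinity purification (TRAP). The groups were the immunoprecipitate (IP), which is RNA recovered with the tagged ribosomes, and the total input RNA of the same amygdalae. Every mouse in both groups carried the same genotype, no treatment is labelled, and age and sex are not given in the sources used here. Each group had 2 libraries, replicates 1 and 2, and the RNA of 3 mice was pooled in each library, so that replicate 1 of IP and input share a pool of mice and replicate 2 shares another. No library of Cre-negative tissue was analysed here, so that RNA recovered without the tag was not measured.

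Excitatory neurons of the cortex, hippocampus and basolateral amygdala load glutamate into vesicles with the transporter encoded by Slc17a7, and those of the hypothalamus, thalamus and medial amygdala mainly with that of Slc17a6. Their identity is set in the embryo by transcription factors of the dorsal telencephalon, among them Emx1, Emx2, Lhx2, Tbr1 and the Neurod genes. Npy neurons of the amygdala are for the most part GABAergic. Setting IP against input addressed which transcripts were carried by the tagged ribosomes of cells with Npy-Cre.

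The precipitation was checked first. Npy was at 1240.4 and 1167 FPKM in IP, against 105.4 and 99.2 in input. Values are Cufflinks FPKM, a level per unit of transcript length and sequencing depth, and a log2 change is the IP minus input difference of log2(FPKM + 1), so that the change of a low gene is understated. The sum of FPKM was 419349 to 423985 in IP and 334759 to 335119 in input. The limits Cufflinks gives around each value spanned on either side a median of 20.6% to 22.9% of the value for genes at 1 to 2 FPKM, and 7.005% to 7.63% for genes at 10 to 20 FPKM. In bulk RNA of IP, fewer tagged cells of a type, less RNA per tagged cell and RNA recovered without the tag cannot be told apart. Between pools, fewer cells of a type and less RNA per cell cannot be told apart either.

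Upstream sequences are shown for 3 members that span the range of responses described next, from the gene with the lowest log2 change (Lhx2), through the vesicular glutamate transporter gene (Slc17a7), to a gene that did not fall (Cux2). Each is the 250 bases before the annotated start in RefSeq (GRCm38.p6, the build of mm10), written 5′ to 3′ on the strand of the gene. Capitals mark CAGATG or its reverse complement CATCTG, an E-box that NeuroD proteins can bind.
Lhx2 (chr2:38339031-38339280, plus strand): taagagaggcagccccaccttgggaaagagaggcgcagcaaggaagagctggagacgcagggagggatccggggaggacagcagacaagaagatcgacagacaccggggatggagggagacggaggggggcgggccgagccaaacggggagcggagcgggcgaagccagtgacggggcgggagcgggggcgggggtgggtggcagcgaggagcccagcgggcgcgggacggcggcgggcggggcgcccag
Slc17a7 (chr7:45163671-45163920, plus strand): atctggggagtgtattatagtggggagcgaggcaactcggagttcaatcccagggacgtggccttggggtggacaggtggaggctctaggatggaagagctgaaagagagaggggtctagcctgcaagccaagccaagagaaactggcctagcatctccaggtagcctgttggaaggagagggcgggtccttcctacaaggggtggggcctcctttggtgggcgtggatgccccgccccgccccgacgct
Cux2 (chr5:122047826-122048075, minus strand): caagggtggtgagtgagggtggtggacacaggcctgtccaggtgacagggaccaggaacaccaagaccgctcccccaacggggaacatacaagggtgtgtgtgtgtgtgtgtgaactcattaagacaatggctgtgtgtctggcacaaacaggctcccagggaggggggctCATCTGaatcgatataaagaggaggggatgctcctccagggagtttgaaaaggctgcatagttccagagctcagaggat
The Lhx2 window is 72.8% G or C with 25 CpG, the Slc17a7 window 61.2% with 9 CpG and the Cux2 window 55.2% with 3 CpG, against a median of 52.4% G or C over 32851 promoter windows. For each member with a RefSeq promoter entry, only the window nearest the gene start listed with the FPKM values was kept. For Rasgrf2, Lhx9 and Arpp21 that window still starts 143786, 5135 and 1119 bases away from the listed start. The E-box occurred in the windows of 6 of these 28 members (21.4%), and in 14.4% of all windows. The core GGTGTGA of the T-box motif (or TCACACC), which is the kind of site Tbr1 binds, occurred in 3 of 28 (10.7%) and in 3.33% of all windows. A match is a description of the letters and not a binding site.

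Most genes of the set were lower in IP. Of the 29 members that passed the filter (2 or more libraries with FPKM of 1 or more), 24 fell, 0 rose and 5 did not pass the test, which was limma with Benjamini-Hochberg adjustment over 12417 genes and a threshold of 0.05. Over all genes tested, 33.9% fell and 37.0% rose by the same rule. Emx2 and Lhx9 passed the filter through the input libraries alone and so had to differ, and Sim1 and Otp were below the filter. The median change of the 29 was -0.88 on the log2 scale, and that of all genes tested was 0.03. Both IP values lay below both input values for 24 of the 29, as they did for 41.4% of all genes tested. A change of -1 or lower was reached by 13 of the members, Emx2 and Lhx9 among them, and all 13 were called. Of all 12417 genes tested, 7.87% had both such a change and an adjusted p under the threshold.

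**Figure D1:**
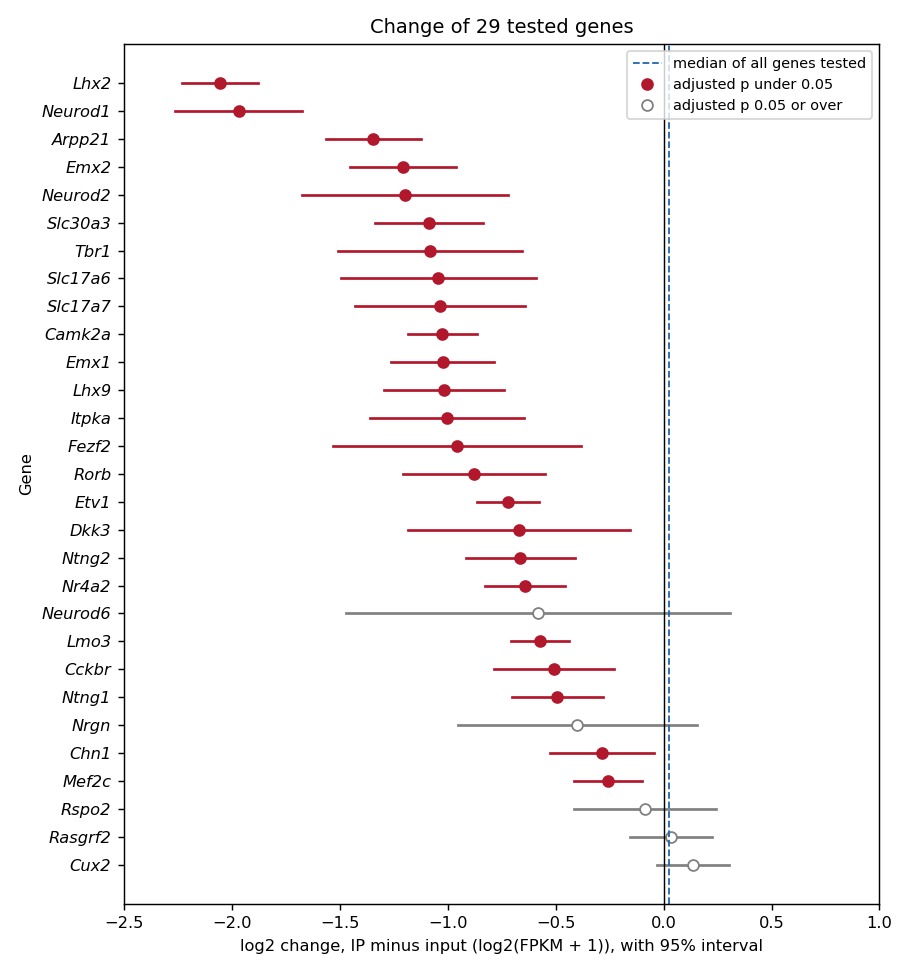
Log2 change (IP minus input, log2(FPKM + 1) scale) of the 29 tested members, sorted, with 95% intervals from limma and 2 libraries per group. Filled points passed the threshold. Lhx2 (-2.05) and Neurod1 (-1.97) stand furthest left, and the intervals of Neurod6, Nrgn, Rspo2, Rasgrf2 and Cux2 include 0.

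The genes that load synaptic vesicles fell together. Slc17a7, on chromosome 7 from 45163921 to 45176139 (mm10, whole gene), was at 173 and 118 FPKM in IP, against 286 and 302 FPKM in input. Both IP libraries lay below both input libraries, and the change was -1.04 (SE 0.16; limma, adjusted p = 0.00164), a level in IP of 49.4% of that in input. Slc30a3, which encodes the transporter that fills glutamatergic vesicles with zinc, was at 26.5 and 22.6 FPKM in IP, against 49.1 and 57.5 FPKM in input. Its change of -1.09 (SE 0.10; limma, adjusted p = 0.000204) was close to that of Slc17a7. Slc17a6 was much less abundant, at 1.48 and 2.58 FPKM in IP, against 4.595 and 5.74 FPKM in input (change -1.04, SE 0.19; limma, adjusted p = 0.00286). The level of Slc17a6 in IP thus differed 1.74-fold between the libraries, with the higher value in replicate 2, where Slc17a7 and Slc30a3 had their lower values.

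**Figure D2:**
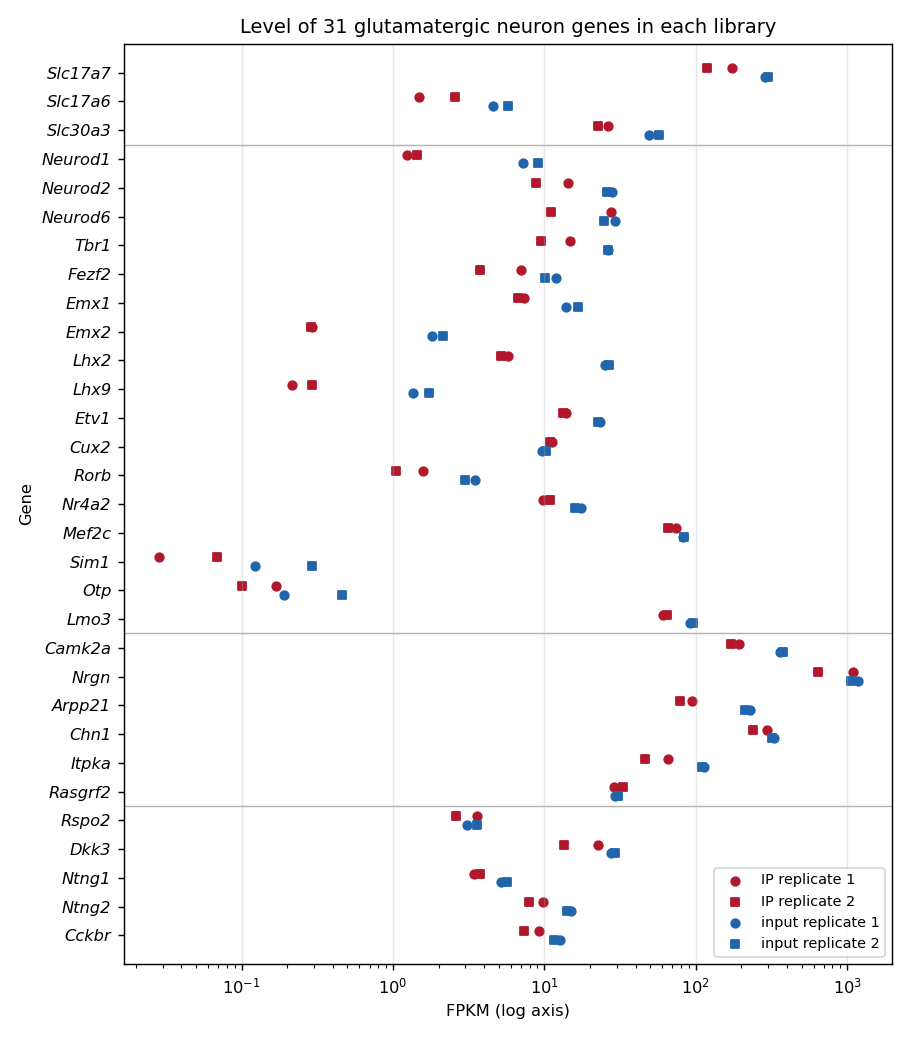
FPKM (log axis) of all 31 members in the 2 IP libraries (red) and the 2 input libraries (blue), with circles for replicate 1 and squares for replicate 2. Horizontal lines separate vesicle transporters, transcription factors, calcium and dendritic signalling genes, and secreted or surface proteins. Nrgn is the most abundant member and Sim1 the least.

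The transcription factors held both the lowest log2 changes and genes that did not fall. Of 17, 13 fell, 2 did not pass and 2 were not tested. Lhx2, a LIM-homeobox factor of the dorsal telencephalon on chromosome 2 from 38339281 to 38369737, was at 5.71 and 5.20 FPKM in IP, against 25.1 and 26.5 FPKM in input. Its mean was 4.73-fold lower, and its change was the lowest of the set on the log2(FPKM + 1) scale (-2.05, SE 0.07; limma, adjusted p = 1.63e-05). Neurod1, a basic helix-loop-helix factor of neuronal differentiation on chromosome 2 from 79452641 to 79456636, was at 1.23 and 1.43 FPKM in IP, against 7.21 and 9.12 FPKM in input (change -1.97, SE 0.12; limma, adjusted p = 4.95e-05). Its exons share 7.37% of their bases with Cerkl on the same strand and 5.64% with a non-coding RNA on the other strand. Reads from the shared bases cannot be told apart here, and strand information would separate only those of the non-coding RNA.

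The other LIM and Emx homeobox genes were also lower. Emx2 was at 0.289 and 0.286 FPKM in IP, against 1.82 and 2.13 FPKM in input, a 6.87-fold lower mean, although 8.79% of its exonic bases overlap the antisense gene Emx2os. Lhx9 was at 0.215 and 0.289 FPKM in IP, against 1.35 and 1.74 FPKM in input, and was 6.11-fold lower. These low levels carry wide limits, and on the log2(FPKM + 1) scale the changes were -1.21 and -1.02. Emx1, a marker of the pallial excitatory lineage, was at 7.32 and 6.66 FPKM in IP, against 13.97 and 16.6 FPKM in input (change -1.02, SE 0.10; limma, adjusted p = 0.000213). Thus the IP level was 45.7% of input for Emx1, and 14.6% for Emx2.

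Factors of postmitotic projection neurons fell to about the same degree as Slc17a7, with a wide spread between the IP libraries. Tbr1, a T-box factor, was at 14.8 and 9.55 FPKM in IP, against 26.3 and 26.2 FPKM in input (change -1.08, SE 0.17; limma, adjusted p = 0.00187). Neurod2 was at 14.3 and 8.75 FPKM in IP, against 28.2 and 25.9 FPKM in input (change -1.20, SE 0.20; limma, adjusted p = 0.00198). In both genes IP replicate 1 stood above IP replicate 2, and the groups did not overlap. Fezf2, a zinc finger factor of subcortically projecting neurons, was at 7.05 and 3.75 FPKM in IP, against 11.96 and 10.1 FPKM in input. Its change of -0.96 (SE 0.24; limma, adjusted p = 0.0111) did not pass without input replicate 1 (adjusted p = 0.117) or input replicate 2 (adjusted p = 0.0711), and it was -0.58 without IP replicate 2.

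Neurod6 differed from its relatives in that its groups overlapped. It was at 27.6 and 11.1 FPKM in IP, against 29.1 and 24.7 FPKM in input, so that IP replicate 1 lay within the input range and IP replicate 2 far below it. The change of -0.58 (SE 0.37) did not pass (limma, adjusted p = 0.197). It passed in the fit that blocks on the pool, that is the replicate number (adjusted p = 0.0238). The change was -1.20 without IP replicate 1 and 0.041 without IP replicate 2. In these fits the lone IP library is assumed to vary like the input libraries. Whether Neurod6 responded differently from Neurod1 or Neurod2 was not tested.

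Among the factors used as markers of cortical layers, Etv1 and Rorb fell and Cux2 did not. Etv1, an ETS factor of layer 5 neurons, was at 13.8 and 13.2 FPKM in IP, against 23.2 and 22.7 FPKM in input (change -0.72, SE 0.06; limma, adjusted p = 0.000124). Rorb, a nuclear receptor of layer 4, was at 1.59 and 1.05 FPKM in IP, against 3.48 and 2.997 FPKM in input (change -0.88, SE 0.14; limma, adjusted p = 0.00153). Cux2, a cut-like homeobox factor of upper layers that some interneurons also express, lies on chromosome 5 from 121860216 to 122047825 and was at 11.2 and 10.9 FPKM in IP, against 9.60 and 10.3 FPKM in input. Both IP values were above both input values, and the change of 0.13 (95% interval -0.03 to 0.30) did not pass (limma, adjusted p = 0.122). The direction for Cux2 depended on the scaling. It was -0.19 once each library was rescaled to the same sum (adjusted p = 0.056). It passed upward with median-of-ratios size factors (0.19, adjusted p = 0.0466) and with transcript length corrected for (0.58, adjusted p = 0.000479).

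Nr4a2, an orphan nuclear receptor found in claustrum and deep cortical neurons, was at 9.85 and 10.8 FPKM in IP, against 17.4 and 16.0 FPKM in input (change -0.64, SE 0.08; limma, adjusted p = 0.000504). Lmo3, a LIM-only cofactor, was at 61.1 and 64.6 FPKM in IP, against 91.5 and 96.6 FPKM in input (change -0.57, SE 0.05; limma, adjusted p = 0.000218). In these genes the IP libraries lay close together and clear of input. Mef2c, a MADS-box factor active in excitatory neurons and in interneurons, had a small fall, with 73.59 and 65.7 FPKM in IP, against 82.9 and 83.8 FPKM in input (change -0.26, SE 0.06; limma, adjusted p = 0.0118). Mef2c did not pass when input replicate 1 (adjusted p = 0.076) or input replicate 2 (adjusted p = 0.0866) was left out, and the change was 0.03 with transcript length corrected for (adjusted p = 0.732).

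Sim1 and Otp, PAS-domain and homeobox factors of hypothalamic and medial amygdala neurons, were near the lower end of what these libraries show. Sim1 was at 0.028 and 0.068 FPKM in IP, against 0.123 and 0.294 FPKM in input. Otp was at 0.168 and 0.101 FPKM in IP, against 0.191 and 0.461 FPKM in input. The IP values were the lower ones in both genes, but neither gene was called when the filter was dropped.

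The calcium signalling and dendritic genes divided into 3 genes at 39.2% to 50.2% of the input level and 3 at 78.3% or more. Camk2a, the alpha subunit of the calcium/calmodulin-dependent kinase of excitatory synapses, was at 192 and 171 FPKM in IP, against 362 and 377 FPKM in input (change -1.03, SE 0.07; limma, adjusted p = 5.56e-05). Arpp21, a cAMP-regulated phosphoprotein that binds RNA, was at 93.8 and 78.4 FPKM in IP, against 227 and 212 FPKM in input. Its change of -1.34 (SE 0.09; limma, adjusted p = 6.27e-05) came next in the set after those of Lhx2 and Neurod1 on the log2(FPKM + 1) scale. The order rests on that scale, since the mean of Arpp21 was 2.55-fold lower, against 6.87-fold for Emx2 and 6.11-fold for Lhx9. Itpka, a kinase of inositol trisphosphate in dendritic spines, was at 65.5 and 46.5 FPKM in IP, against 113.6 and 109.5 FPKM in input (change -1.003, SE 0.15; limma, adjusted p = 0.00121). The groups did not overlap in Camk2a, Arpp21 or Itpka.

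Nrgn, Chn1 and Rasgrf2 were closer to input. Nrgn encodes neurogranin, a calmodulin-binding protein of dendrites, and lies on chromosome 9 from 37544493 to 37552745. It was at 1099.9 and 646 FPKM in IP, against 1172 and 1057 FPKM in input. IP replicate 1 lay inside the input range and IP replicate 2 well below it, and the change of -0.40 (SE 0.23) did not pass (limma, adjusted p = 0.159). The change was -0.78 without IP replicate 1 and -0.02 without IP replicate 2. Nrgn passed downward with the replicate block (adjusted p = 0.018). It also passed downward under quantile normalization (-1.003, adjusted p = 0.00945), under rescaling (-0.74, adjusted p = 0.0259) and with transcript length corrected for (-0.70, adjusted p = 0.0322).

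Chn1, a GTPase-activating protein for Rac, was at 295 and 238 FPKM in IP, against 330 and 317 FPKM in input. The change of -0.29 (SE 0.10; limma, adjusted p = 0.0403) had the highest adjusted p among the called members. It was -0.13 without IP replicate 2 (adjusted p = 0.0882) and -0.44 without IP replicate 1, and it did not pass without either input library or in 4 other settings (adjusted p = 0.0678 to 0.219). Chn1 shares 8.37% of its exonic bases with the antisense gene Chn1os1. Rasgrf2, an exchange factor that activates Ras, was at 28.7 and 32.9 FPKM in IP, against 29.2 and 30.8 FPKM in input, with overlapping groups and a change of 0.03 (95% interval -0.15 to 0.22; limma, adjusted p = 0.707). That interval leaves out a fall of the size of Slc17a7 or Camk2a, but the sign and the call of Rasgrf2 rest on the scaling, with -0.30 under rescaling (adjusted p = 0.0174) and 0.28 with transcript length corrected for (adjusted p = 0.0172).

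Of the 5 genes of secreted and surface proteins, 4 fell and 1 did not pass. Ntng1 and Ntng2 encode netrin-G proteins, membrane-anchored ligands at excitatory synapses. Ntng1 was at 3.41 and 3.73 FPKM in IP, against 5.17 and 5.70 FPKM in input (change -0.49, SE 0.09; limma, adjusted p = 0.00276), a call lost with quantile normalization (-0.24, adjusted p = 0.0522). Ntng2 was at 9.78 and 7.86 FPKM in IP, against 14.9 and 14.1 FPKM in input (change -0.66, SE 0.10; limma, adjusted p = 0.0016). The 2 genes kept 65.8% and 60.8% of their input level. Ntng2 shares 13.985% of its exonic bases with the gene 6530402F18Rik on the same strand. Cckbr, the receptor B for cholecystokinin and gastrin, was at 9.28 and 7.28 FPKM in IP, against 12.7 and 11.6 FPKM in input (change -0.51, SE 0.11; limma, adjusted p = 0.00786), and did not pass without input replicate 1 (adjusted p = 0.0876).

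Dkk3 and Rspo2 encode secreted proteins of the Wnt field, a Dickkopf family member and an R-spondin that enhances Wnt signalling. Dkk3 was at 22.7 and 13.5 FPKM in IP, against 27.7 and 29.3 FPKM in input (change -0.67, SE 0.21; limma, adjusted p = 0.0283). The Dkk3 change was -0.31 without IP replicate 2 and -1.02 without IP replicate 1, and it did not pass when input replicate 1 (adjusted p = 0.144) or input replicate 2 (adjusted p = 0.179) was left out, nor without the filter (adjusted p = 0.0868) or under robust eBayes (adjusted p = 0.102). Rspo2, a marker of basolateral amygdala neurons, was at 3.58 and 2.60 FPKM in IP, against 3.07 and 3.57 FPKM in input. Its groups overlapped and its change of -0.09 (95% interval -0.41 to 0.24) did not pass (limma, adjusted p = 0.59). With quantile normalization the sign turned (0.24, adjusted p = 0.152).

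The IP libraries differed from each other in these genes more than the input libraries did. The Cufflinks limits of IP replicates 1 and 2 did not overlap for 18 of the 29 tested members, where the share over all genes tested was 12.3%. IP replicate 1 was above IP replicate 2 in 22 of the 29, as in 51.7% of all genes tested. Limits apart with IP replicate 1 the higher were found in 16 of the 29, and in 7.88% of all genes tested. Between the input libraries the limits were apart for 7 of the 29, and for 8.71% of all genes tested. IP replicate 1 was at least 1.3 times IP replicate 2 in 10 of the 29 members, and in 4.98% of all genes tested.

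The genes with this spread came from all 4 roles. The ratio of IP replicate 1 to IP replicate 2 was 2.49 for Neurod6, 1.88 for Fezf2, 1.70 for Nrgn, 1.68 for Dkk3, 1.63 for Neurod2, 1.55 for Tbr1, 1.51 for Rorb, 1.46 for Slc17a7 and 1.41 for Itpka. In contrast it was 1.01 for Emx2, 1.10 for Lhx2, 1.05 for Etv1 and 0.95 for Lmo3, whose IP levels were lower than input by about the same amount in both libraries. These ratios describe 2 libraries and carry no test.

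**Figure D3:**
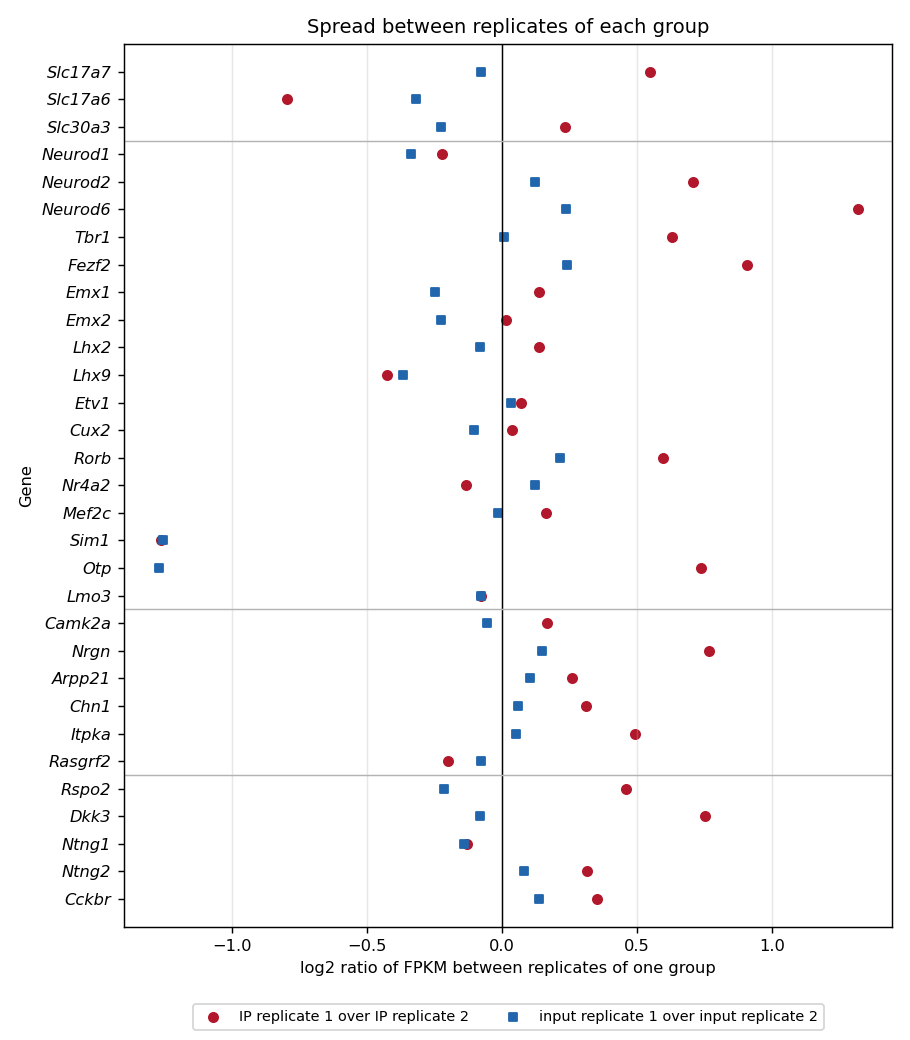
Log2 ratio of FPKM between replicate 1 and replicate 2 within IP (red circles) and within input (blue squares) for all 31 members. The IP ratios reach beyond 1 for Neurod6 (2.49-fold), while the input ratios of the tested members run from 0.775-fold (Lhx9) to 1.18-fold (Fezf2), and the IP ratio of Slc17a6 lies on the other side (0.576-fold).

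Set against the input of the same pool, the level of Slc17a7 in IP was 60.3% in pool 1 and 39.1% in pool 2. Neurod6 was at 94.9% in pool 1 and 44.9% in pool 2, and Nrgn at 93.9% and 61.1%. Of the 29 tested members, 24 had a lower share of input in pool 2, as did 49.7% of all genes tested. The median change of the members was -0.73 within pool 1 and -1.06 within pool 2. The exceptions included Slc17a6, with 32.3% in pool 1 and 44.9% in pool 2, and Nr4a2, with 56.7% and 67.7%. Slc17a6 was also higher in pool 2 among the input libraries, as were 6 members in all that had their higher value in pool 2 in both IP and input, while 12 had it in pool 1 in both. The higher value was thus in the same pool in both groups for 62.1% of the tested members, and for 53.3% of all genes tested.

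Genes of other cell types also differed between IP and input and, in some lists, between the IP libraries. Their part in the result was not tested. Over all genes tested, IP replicate 1 was above IP replicate 2 in 51.7%. All 12 GABAergic markers rose, with a summed level of 7109.7 and 7350.3 FPKM in IP, against 779 and 753 FPKM in input, and 10 of the 12 were higher in IP replicate 2 than in IP replicate 1. Sst (somatostatin) and Npy, the gene that drives Cre, made up 81.6% and 80.6% of the IP sums. The 10 other genes summed to 1307 and 1427 FPKM in IP, against 316 and 318 FPKM in input. All 10 astrocyte markers fell (sum 110.9 and 139 FPKM in IP, against 483 and 522 FPKM in input), with Slc7a10 listed at 0 in both IP libraries, and the sum was the higher in IP replicate 2. All 10 oligodendrocyte markers fell (sum 114.7 and 129.8 FPKM in IP, against 548 and 506 FPKM in input), all 10 with the higher IP value in replicate 2. All 10 microglial markers fell, to sums of 9.80 and 9.85 FPKM in IP, against 62.2 and 56.4 FPKM in input.

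The median level in IP was 49.4% of input for the 31 glutamatergic genes, 17.1% for the astrocyte list, 20.7% for the oligodendrocyte list and 7.42% for the microglial list. The pan-neuronal list held 7 rises, 2 falls and 1 gene that did not pass among its 10 genes, with a median level of 122% of input. The 2 falls were Map2 (change -1.27, 41.0% of input) and Nefl (change -0.16, 89.8% of input). Of the 10 genes, 8 were higher in IP replicate 1. Choroid plexus and ependymal genes summed to 14.4 and 5.22 FPKM in IP, against 186 and 16.9 FPKM in input. Ttr (transthyretin), at 10.4 and 1.31 FPKM in IP, against 172 and 9.66 FPKM in input, carried most of the difference between the pools, and without it the sums were 4.02 and 3.91 FPKM in IP, against 13.7 and 7.21 FPKM in input. Of the 6 such genes, 3 fell, 2 did not pass and 1 was not tested, with Folr1 at 0 in IP replicate 2. Of those 3, Kcnj13 and Ccdc153 passed the filter through the input libraries alone and so had to differ.

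**Figure D4:**
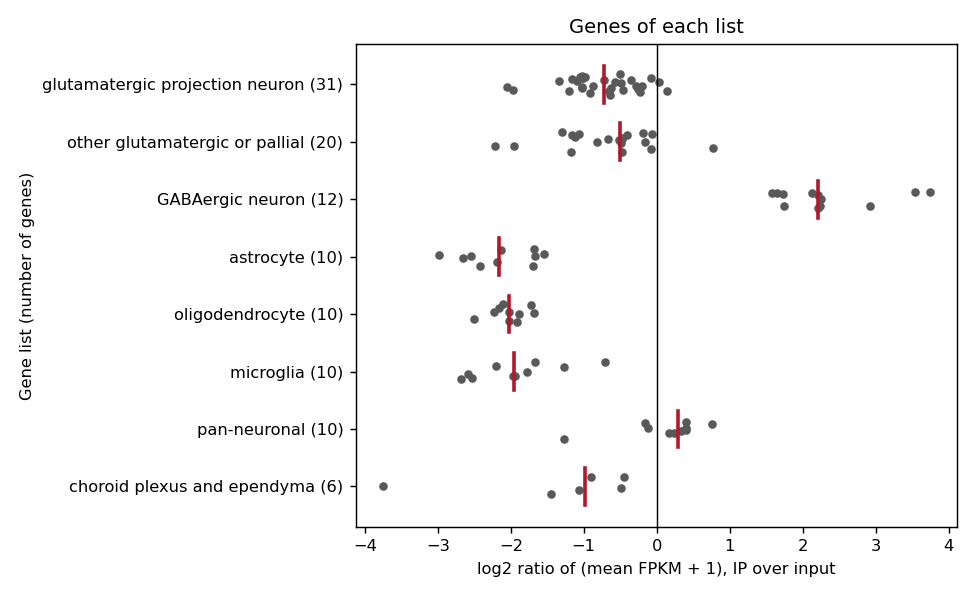
Log2 ratio of mean FPKM + 1, IP over input, for each gene (grey points) of the 31 glutamatergic genes and of the 7 comparison lists, with the median as a red line. The glutamatergic points lie mostly between the glial lists on the left and the GABAergic list on the right.

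A further list of 20 genes of excitatory or pallial neurons, none of them members, was examined in the same fit. Of these, 14 fell, 1 rose, 4 did not pass and 1 (Slc17a8, which encodes the third vesicular glutamate transporter) was below the filter, with a median change of -0.52. The shares over all genes tested were 33.9% lower and 37.0% higher. Crym, which encodes a thyroid hormone binding protein, was at 29.2 and 29.5 FPKM in IP, against 135 and 146 FPKM in input (change -2.22, SE 0.06; limma, adjusted p = 8.13e-06). The helix-loop-helix factor gene Bhlhe22 changed by -1.95 and the kinase gene Ptk2b by -1.30. Cux1, the relative of Cux2, was at 32.2 and 32.8 FPKM in IP, against 18.7 and 18.7 FPKM in input (change 0.76, SE 0.05; limma, adjusted p = 6.87e-05), and was the single gene of this list that rose. In this list the Cufflinks limits of the IP libraries were apart for 12 of the 20 genes, and for 12.3% of all genes tested. Limits apart with replicate 1 the higher were found in 11 of the 20, and in 7.88% of all genes tested. The 20 include Slc17a8, which was not tested and whose limits were not apart.

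Of the 24 calls, 6 were lost in at least 1 setting, and 4 of the 5 members without a call gained one in at least 1 setting. After each library was rescaled to the same sum, 26 of the 29 members were lower and 0 higher, with a median of -1.35, while the median of all genes moved to -0.29 and the calls over all genes to 17.9% higher and 53.8% lower. With quantile normalization 24 were lower and 0 higher, against 30.2% lower and 35.3% higher over all genes. With transcript length corrected for, 23 were lower and 2 higher, against 29.8% lower and 36.3% higher over all genes. The 24 members called lower had a median transcript length of 3463.5 bases, and the 5 tested members without a call one of 3338 bases, against 3188 bases for all genes tested.

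**Figure D5:**
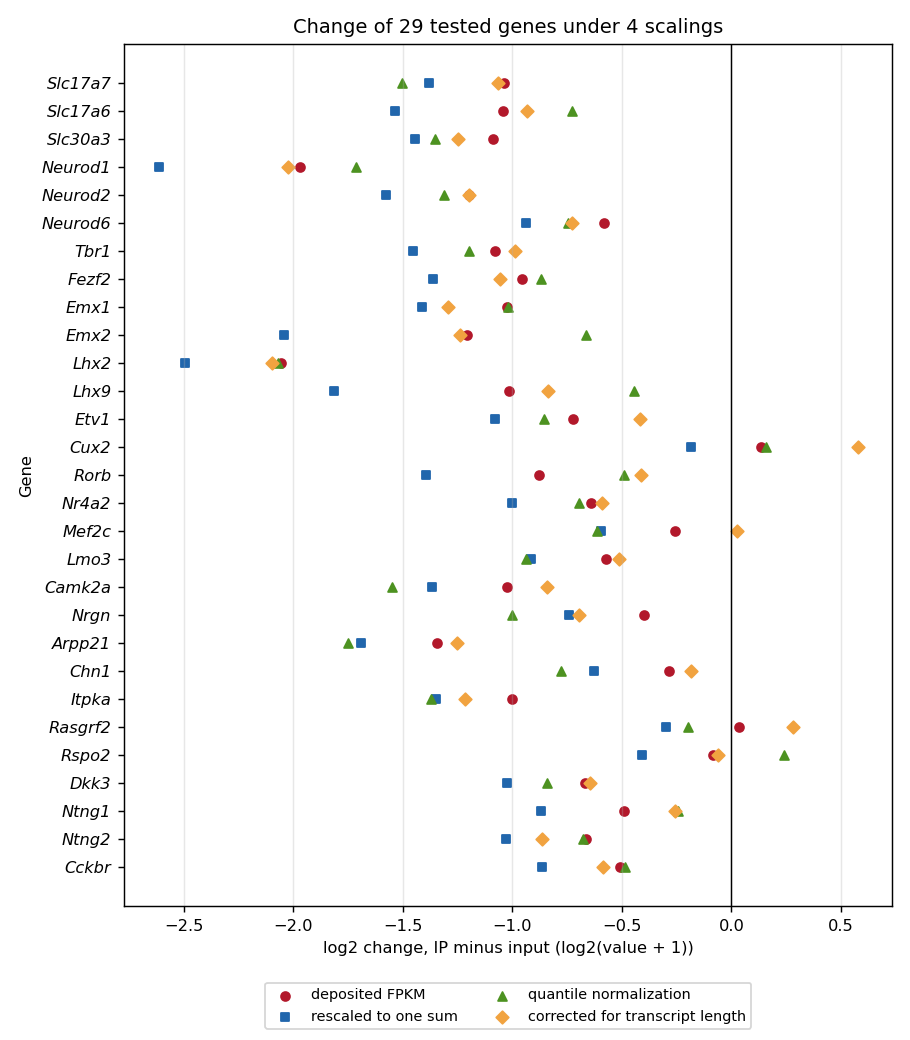
Log2 change (IP minus input) of the 29 tested members with the deposited FPKM, after rescaling to one sum, under quantile normalization and with transcript length corrected for. Lhx2 and Neurod1 stay at -1.71 or lower under all 4, whereas Cux2, Rasgrf2, Rspo2 and Mef2c lie on either side of 0.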

How the data were processed

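RNA of the amygdala was sequenced as 100 bp single-end reads from 200 ng of IP or input RNA, 3 mice pooled per library, per the series' design text. The authors aligned reads with TopHat to mm10 with the iGenomes UCSC annotation and made gene-level FPKM with Cufflinks. Each value has limits and a status field, per the file headers. Versions and strand settings are not given in the sources used here, and no scaling between libraries is recorded. The files give no read totals, so depth is known only through the Cufflinks limits.

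Groups and replicate numbers follow the sample titles. The source description of IP replicate 2 gives replicate 1, and the title was followed. The design text ties each IP to an input of the same pooled mice, so the numbers pair the samples, and the deviations of same-numbered libraries from their group means correlated at 0.163 across genes. No FPKM of 5 or more was identical between replicates.

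Left out were 8 entries with a failed status and 1279 with small RNA names, and the highest entry was kept per symbol. A gene was tested where 2 or more libraries reached FPKM of 1. The test was limma 3.58.1 in R 4.3.3 (lmFit, eBayes, mean-variance trend) on log2(FPKM + 1), two-sided, without a block, and p-values were adjusted over all 12417 genes. Since FPKM are no counts, count models were not run. The fit was tested on simulated data. With 2 libraries against 2, an exact permutation test cannot go below 0.333, so none is given. Fold values are ratios of mean FPKM. All 31 members are reported, and the 3 largest changes per direction of the further list may be named. Members and lists were chosen with earlier results of these data known. Transcript lengths are those of the longest protein-coding GENCODE transcript, matched for 99.4% of the genes tested. Motifs were searched on both strands. Plots were drawn with matplotlib 3.10.9 under Python 3.11.15.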

Additional observations from a re-analysis of the deposited data

How the results depend on the processing

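Of the 29 tested members, 18 kept their direction and their side of the threshold in every one of the 17 alternatives that gave them a value, and 14 of these had a value in all 17. Slc17a6, Emx2, Lhx9 and Rorb were below the filter at FPKM of 5, and Lhx9 also below the filter on the mean over the 4 libraries, the 1 alternative chosen after seeing the data. The calls of Fezf2, Mef2c, Chn1, Dkk3, Ntng1 and Cckbr were lost in at least 1 alternative, and Neurod6, Nrgn, Cux2 and Rasgrf2 were called in at least 1. The count of lower members was 19 to 26 with a library left out, 26 with the replicate block or after rescaling, 22 without the filter, 20 of 24 with a filter at FPKM of 5, and 23 or 24 in the pseudocount, eBayes, size factor, quantile, length, summed entry and mean filter settings. The replicate block changed no call other than those of Neurod6 and Nrgn. The count of higher members was 0 in the 4 fits with a library left out, 1 with size factors and 2 with the length correction. The median change of the members, -0.88, was -0.53 with a pseudocount of 5 and -1.35 after rescaling, and -1.02 to -0.70 with a library left out. Of the 24 called members, 11 moved by over 1.5 times in size after rescaling, 8 with quantile normalization, 6 with a pseudocount of 5 and 5 with the length correction.

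Signs turned for 5 members. After rescaling Cux2 was -0.19 and Rasgrf2 -0.30. With quantile normalization Rasgrf2 was -0.20 and Rspo2 0.24. With the length correction Mef2c was 0.026. With a library left out Neurod6 ran from -1.20 to 0.041, Rasgrf2 from -0.062 to 0.13 and Rspo2 from -0.26 to 0.087. The causes were not tested. With 1 IP or input library left out, the lone library is assumed to vary like the other group. Depth limits Neurod1, Emx2, Lhx9, Rorb, Slc17a6, Sim1 and Otp, whose levels in IP were under FPKM of 3.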
